A study of Homo sapiens with 10 samples.

Results

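The genes described here are 40 genes of glucose breakdown and of the response to low oxygen, taken by gene symbol from the 18144 genes of the deposited table, and all 40 are listed there. They hold 16 glycolytic enzymes, from the hexokinases to lactate dehydrogenase A, and 24 other targets of the hypoxia-inducible factors (HIF), which act in glucose uptake and its control, pH, secretion, oxygen sensing, mitophagy, collagen, chromatin and the endoplasmic reticulum. RNA was sequenced from spheroids (3D) of PC-3, an established human prostate cancer cell line, to follow its response to topotecan, a topoisomerase I poison. Spheroids were left untreated and collected on days 0, 3 and 7, or received topotecan either as a single conventional bolus on day 0 (CONV-TOPO) or in daily fractions (extended exposure, EE-TOPO) and were collected on days 3 and 7. Each treatment and day is 1 library, so 7 libraries were used, and no group has a replicate. The days are those of the labels, while the series text and the methods speak of an exposure over weeks, and the sources used here do not settle which of them holds for these libraries. By the dosing scheme the cumulative doses of both regimens differ until the end of a week. The line is a monoculture without vessels, stroma or immune cells, and the labels give no change of oxygen supply.

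HIF is a pair of an oxygen-regulated alpha subunit and the constant partner ARNT. With oxygen present, prolyl hydroxylases of the EGLN family mark the alpha subunit for destruction by the VHL complex. With oxygen scarce the pair persists and binds short promoter and enhancer elements with the core letters ACGTG or GCGTG, raising glucose transporters, glycolytic enzymes, PDK1 (which keeps pyruvate out of mitochondria), carbonic anhydrases and VEGFA. The inner part of a spheroid receives less oxygen than its rim, and these genes are widely read as its marks.

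The promoters of 6 genes are shown because these genes bound the range of the response on day 7: ALDOA and GAPDH had the highest ratios of topotecan to untreated among the enzymes, ANGPTL4 and ADM the highest among the other HIF targets, and PDK1 and CA12 the lowest. Each run is the 250 bases before the RefSeq start of the gene on GRCh38.p14, written 5′ to 3′ on the gene's strand, and capitals mark each match to ACGTG or GCGTG on either strand, so that a match on the other strand reads CACGT or CACGC. The windows are chr16:30065510-30065759 (plus strand) for ALDOA, chr12:6535014-6535263 (plus) for GAPDH, chr19:8363905-8364154 (plus) for ANGPTL4, chr11:10304823-10305072 (plus) for ADM, chr2:172555840-172556089 (plus) for PDK1 and chr15:63381847-63382096 (minus) for CA12.
ALDOA: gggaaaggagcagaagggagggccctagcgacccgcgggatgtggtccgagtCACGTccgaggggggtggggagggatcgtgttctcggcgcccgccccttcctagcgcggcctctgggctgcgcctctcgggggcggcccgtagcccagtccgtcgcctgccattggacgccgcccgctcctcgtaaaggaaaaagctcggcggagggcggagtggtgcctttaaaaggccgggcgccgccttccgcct
GAPDH: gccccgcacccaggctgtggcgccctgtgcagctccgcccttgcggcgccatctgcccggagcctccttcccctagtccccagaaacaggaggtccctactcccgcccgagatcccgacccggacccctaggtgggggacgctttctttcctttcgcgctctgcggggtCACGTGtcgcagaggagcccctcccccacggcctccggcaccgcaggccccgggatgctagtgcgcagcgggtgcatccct
ANGPTL4: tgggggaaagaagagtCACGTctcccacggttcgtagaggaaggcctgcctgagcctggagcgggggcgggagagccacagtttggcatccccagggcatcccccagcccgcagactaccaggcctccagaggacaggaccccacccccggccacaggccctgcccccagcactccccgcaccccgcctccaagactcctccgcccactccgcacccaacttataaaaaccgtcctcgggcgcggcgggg
ADM: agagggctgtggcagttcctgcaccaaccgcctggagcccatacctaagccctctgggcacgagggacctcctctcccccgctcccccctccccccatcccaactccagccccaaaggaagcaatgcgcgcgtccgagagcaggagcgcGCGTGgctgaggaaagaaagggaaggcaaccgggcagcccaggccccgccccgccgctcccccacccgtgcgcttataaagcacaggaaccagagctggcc
PDK1: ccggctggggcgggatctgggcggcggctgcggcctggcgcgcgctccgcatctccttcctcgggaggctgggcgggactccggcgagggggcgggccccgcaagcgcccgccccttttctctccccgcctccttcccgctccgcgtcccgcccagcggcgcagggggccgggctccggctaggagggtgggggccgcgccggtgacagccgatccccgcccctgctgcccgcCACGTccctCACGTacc
CA12: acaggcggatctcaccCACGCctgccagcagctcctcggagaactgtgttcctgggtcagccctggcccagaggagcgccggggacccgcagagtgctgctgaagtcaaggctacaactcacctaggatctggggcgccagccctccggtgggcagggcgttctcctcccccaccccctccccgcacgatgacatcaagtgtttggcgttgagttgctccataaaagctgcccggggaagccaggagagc
All 6 windows hold a match, whatever the direction of the gene. A promoter was found for 36 of the 40 members (not VEGFA, NDRG1, BNIP3L and SLC2A3), and the motif, on either strand, lies in 11 of 16 enzymes and 16 of 20 other HIF targets, beside 57.5% of the 11426 promoters of tested genes. The palindrome CACGTG in the GAPDH window counts once on each strand, and the RefSeq start behind that window lies 747 bases from the canonical GENCODE start. A match describes letters only and is not a binding site.

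Values are counts per 1000000 reads (CPM) as deposited, less an offset, divided by a scaling factor of the library (TMM), and are called scaled CPM. Depth, estimated from the steps of low values, was 15.0 M to 22.5 M reads per library (M, 1000000). A gene was tested if 2 or more libraries held the equivalent of 10 reads of a library of median depth, which left 14836 genes and 39 of the 40 members. SLC2A3, the neuronal glucose transporter, failed it with at most 6 reads. Counts by direction and medians over the 24 other HIF targets still include it. The PC-3 markers VIM, KRT8, KRT18, CD44, CAV1 and EGFR lay at 95.7 to 1169 CPM, and among genes of other cells PTPRC at no more than 0.489, ACTA2 at 0.952 to 3.33, PECAM1 at 16.8 to 32.7 and COL1A1 at 46.6 to 83.0 CPM.

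Before treatment the glycolytic enzymes stood at the top of the set. On day 0 their scaled CPM per kilobase of the canonical transcript ran from 19.3 (PFKM, the muscle phosphofructokinase) upward with a median of 282, and the other HIF targets had a median of 17.4. GAPDH, the glyceraldehyde phosphate dehydrogenase, came first with 2958 scaled CPM per kb. It was followed by the enolase ENO1 (2109), the pyruvate kinase PKM (1959) and LDHA, which turns pyruvate to lactate (1789). NDRG1, a stress-response gene, held rank 5 with 1205 and was the only other HIF target among the first 9. The classical hypoxia markers lay far down, with VEGFA, the vascular growth factor, at 18.7, and CA9, the membrane carbonic anhydrase, at 1.65 scaled CPM per kb. This order rests on 1 library and has no spread.

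In untreated spheroids the 24 other HIF targets lay higher on day 7 than on day 0, and the enzymes did not share this. Of the 24, 22 had a ratio above 1, with a median log2 ratio of 0.24, beside 49.5% of all genes with a median of -0.0043. The 22 include SLC2A3, which was not tested and had 0 scaled CPM on day 0. Of the 16 enzymes, 5 lay higher and 11 lower, with a median of -0.16. Over all genes this ratio rose with transcript length (Spearman's rho 0.34), and the enzymes have the shorter transcripts (median 2299.5 against 3530.5 bases). A trend over length, gene span and GC content held 8.30% of its variance. What part of the contrast between the lists goes with length was not tested. ANGPTL4, a secreted inhibitor of lipoprotein lipase, went from 49.2 scaled CPM on day 0 to 73.4 on day 3 and 97.9 on day 7. VEGFA went through 67.6, 87.9 and 107 on the same days. KDM3A, a histone H3K9 demethylase, stood at 69.0, 71.9 and 100.2. For these genes day 7 was the highest untreated library, with folds over day 0 of 1.99 (95% counting interval 1.84 to 2.15), 1.58 (1.47 to 1.69) and 1.45 (1.35 to 1.56). At the other end, PKM (4515, 3627 and 3586) had a day-7 fold of 0.794 (0.786 to 0.802), LDHA (4009, 3057 and 3254) of 0.812 (0.803 to 0.820) and ADM, the vasodilator adrenomedullin (28.3, 27.5 and 22.7), of 0.804 (0.708 to 0.911). CA9 went with ADM, as the other HIF target below its day-0 level, at 2.55, 2.18 and 1.65 scaled CPM. From day 0 to day 3 NDRG1 stood at 3647 and then 2567, and HK1, the widely expressed hexokinase, at 405 and then 309. By day 7 NDRG1 was back at 3767 and HK1 at 374. The intervals cover counting error only, and with 1 library a day none of this has a replicate check. Age of the spheroid and its oxygen supply cannot be told apart here.

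On day 3 the enzymes and the other HIF targets lay on opposite sides of the untreated library. Averaged over both regimens, 14 of 16 enzymes lay lower, with a median log2 ratio of -0.32. Of the other HIF targets 20 of 24 lay higher, with a median of 0.22, and the 20 include the untested SLC2A3. Over all genes tested 48.4% lay higher and the median was -0.01. The medians were split in each regimen: the enzymes had -0.22 in CONV-TOPO and -0.39 in EE-TOPO, and the other HIF targets 0.23 and 0.22. Of the 24 other HIF targets, 21 lay higher in CONV-TOPO, but in EE-TOPO 16 lay higher and 8 lower. Of all genes 48.6% and 47.5% lay higher. Both regimens are set against the same untreated library, so they do not check each other. No member passed limma with Benjamini-Hochberg adjustment on day 3, where 0.0135% of all genes were called, and the lowest adjusted p was 0.227 for the enzymes and 0.295 for the other HIF targets. Without adjustment 2 of 16 enzymes and 4 of 23 other HIF targets had a p under 0.05, beside 1707 of all 14836 genes. The share of the enzymes is near that of all genes.

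GAPDH stood at 3801, 3731 and 3535 scaled CPM without drug on days 0, 3 and 7, and at 2841 in CONV-TOPO and 2607 in EE-TOPO on day 3. ALDOC, the brain-type aldolase, stood at 94.5, 123 and 109 untreated, and at 75.2 and 62.9 with topotecan. PKM had 2842 and 2446 with topotecan on day 3, against 3586 to 4515 untreated. In each case both topotecan libraries lay below every untreated library. That held for 12 of the 16 enzymes, while 18.3% of all genes did so. The folds to untreated day 3 were 0.761 (0.753 to 0.770) and 0.699 (0.691 to 0.706) for GAPDH, and 0.614 (0.573 to 0.658) and 0.514 (0.482 to 0.548) for ALDOC, with CONV-TOPO first. HK1, PFKL and ENO2 overlapped the untreated libraries, and HK2, the hexokinase most associated with tumors, lay on the other side, with 259, 228 and 266 untreated and 297 and 273 with topotecan, above all untreated libraries, which 15.6% of all genes were.

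Among the other HIF targets ANGPTL4, PFKFB3 and VEGFA had the highest day-3 ratios. PFKFB3, which makes the activator of phosphofructokinase, stood at 71.4, 73.9 and 98.8 untreated and at 104 and 100.2 with topotecan. VEGFA stood at 128 in CONV-TOPO and 110.4 in EE-TOPO, against 67.6 to 107 untreated. Both lay above all 3 untreated libraries on day 3, as did ADM, STC2 and ERO1A, 5 of 24 in all, beside the 15.6% of all genes. ANGPTL4 did not, because EE-TOPO, at 91.9, lay under untreated day 7. PDK1 and BNIP3, a mitophagy receptor, lay below all untreated libraries, 2 of 24 beside 18.3% of all genes. PDK1 had 75.3 and 79.0 against 81.4 to 118 untreated.

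**Figure D1:**
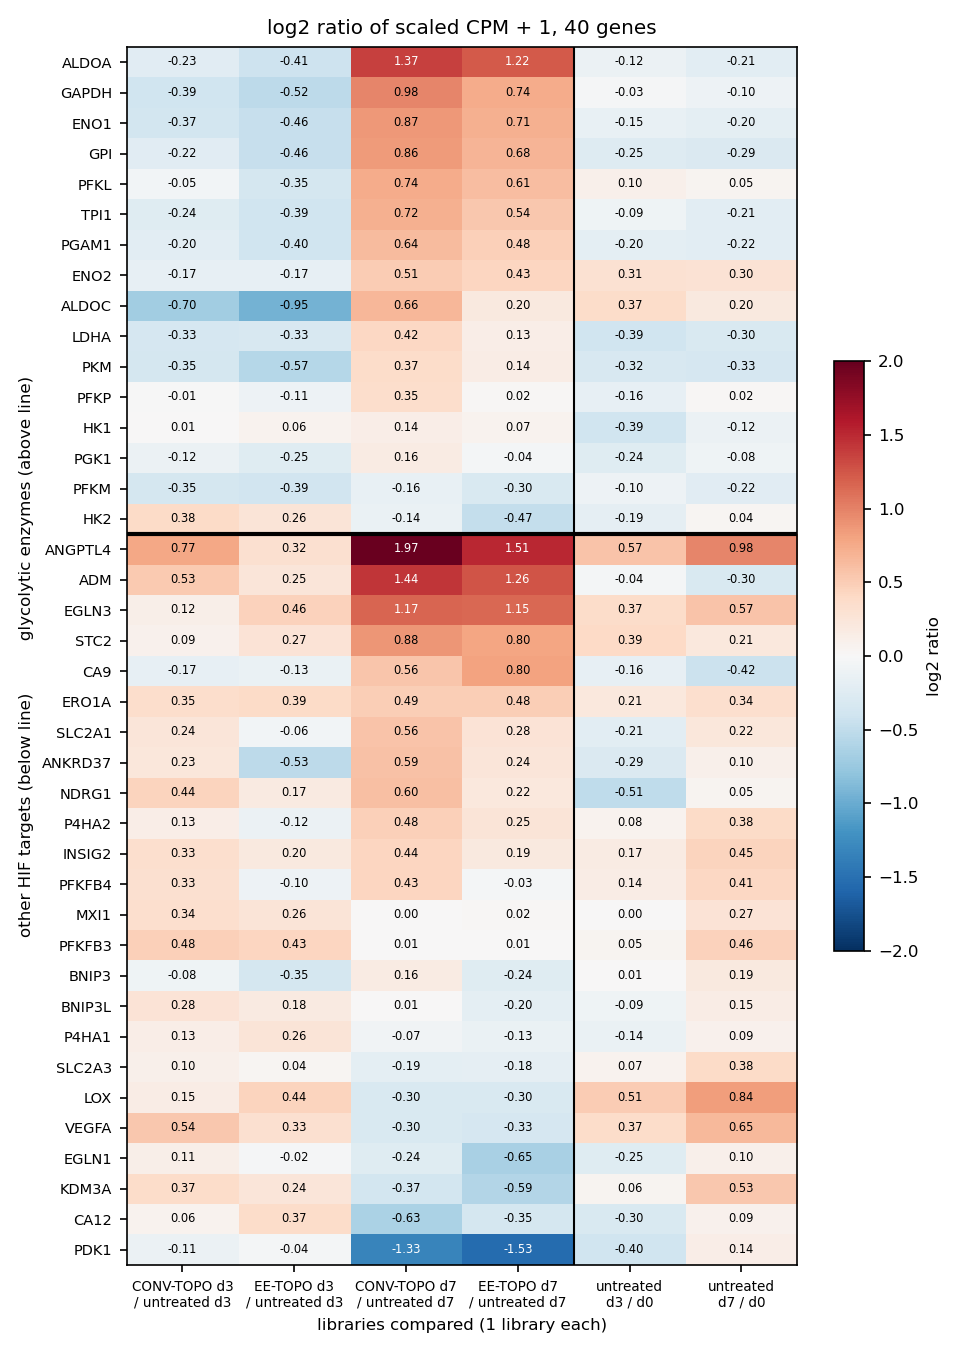
Heat map of the log2 ratio of scaled CPM + 1 for the 40 genes (rows, enzymes above the line, each block ordered by the day-7 value) in 6 pairs of single libraries (columns). Most enzymes are blue on day 3 and red on day 7, ALDOA reaching 1.37 in CONV-TOPO, while the other HIF targets run from 1.97 (ANGPTL4) to -1.53 (PDK1) on day 7.

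On day 7 the enzymes lay on the other side. Of the 16, 14 were higher than the untreated library of the day, the median log2 ratio was 0.45, and 8 rose by limma (GPI, PFKL, ALDOA, TPI1, GAPDH, PGAM1, ENO1 and ENO2) with none called lower, where 18.6% of all genes were called higher and 20.2% lower. The 24 other HIF targets were divided against the untreated library of day 7, with 14 higher, 10 lower and a median of 0.10 that turned to -0.13 when libraries were scaled by their totals. Of these, 5 rose (ADM, ANGPTL4, STC2, EGLN3 and ERO1A) and PDK1 and KDM3A fell. Against the other untreated libraries more of them lay higher. Both day-7 topotecan libraries exceeded all 3 untreated libraries for 13 of the 24, while 29.2% of all genes did. For MXI1 (38.7 and 39.2 against 38.6 on untreated day 7) and PFKFB3 (99.2 and 99.6 against 98.8) the margin was very small. Both lay below all 3 for PDK1 alone, while 34% of all genes did. With the mean of the untreated libraries as baseline 10 other HIF targets were called higher and 1 lower, beside 3236 and 3698 of all 14836 genes. With untreated day 0 as baseline there were 9 and 1, beside 1984 and 2267 of all genes. The median of all genes was -0.05. Scaling by totals in place of TMM moved all log2 ratios of day 7 by -0.24 and those of day 3 by 0.06, and changed the calls over all genes from 2766 higher and 2995 lower to 1804 and 4432. Under that scaling 11 of the 16 enzymes were still higher, with a median of 0.21, and 3 were called higher (ALDOA, GPI and PFKL) and 2 lower (HK2 and PFKM). Without CONV-TOPO of day 7 the enzymes called higher were also ALDOA, GPI and PFKL, and against untreated day 0 they were ALDOA, ALDOC, ENO2, GAPDH and PFKL. The p-values rest on the difference between the regimens on a day and assume that the lone untreated library varies likewise, so they are no measure of the spread between cultures.

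ALDOA, the main aldolase, changed most among the enzymes. It stood at 1833, 1687 and 1586 scaled CPM untreated, at 1441 and 1269 on day 3 with topotecan and at 4101 in CONV-TOPO and 3693 in EE-TOPO on day 7. The day-7 libraries lay above all untreated libraries by a wide margin, with folds of 2.59 (2.55 to 2.62) and 2.33 (2.30 to 2.36) over untreated day 7. The log2 fold change was 1.29 ± 0.20 (SE, adjusted p = 0.00139, limma).

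GAPDH reached 6986 and 5893 on day 7, against 3535 untreated, with a log2 fold change of 0.86 ± 0.24 (adjusted p = 0.0209). ENO1 reached 5953 and 5329.5 against 3264, at 0.79 ± 0.23 (adjusted p = 0.0237). GPI, which converts glucose 6-phosphate to fructose 6-phosphate, reached 727 and 643 against 401, at 0.77 ± 0.16 (adjusted p = 0.00548). The enzymes called higher cover glucose phosphate isomerization (GPI), phosphofructokinase (PFKL, the liver form, 0.67), aldolase, triose phosphate isomerase (TPI1, 0.63), GAPDH, phosphoglycerate mutase (PGAM1, 0.56) and both enolases (ENO2, 0.47). The hexokinases, PGK1 and the steps after enolase were not called, nor were the further isoforms PFKP, PFKM and ALDOC. LDHA stood at 4354 and 3552 on day 7 against 3254 untreated, and since untreated day 0 had 4009 the groups overlap (log2 0.27 ± 0.23, adjusted p = 0.378). PKM stood at 4643 and 3964, astride its day-0 level of 4515 (0.26, adjusted p = 0.424). HK2 stood at 242 and 192 against 266, with a log2 fold change of -0.30 ± 0.16 (adjusted p = 0.172), and HK1 at 411 and 393 against 374 (0.10, adjusted p = 0.571). PGK1, the phosphoglycerate kinase and a much used HIF target, stood at 3350.3 and 2898 against 2988 (0.06 ± 0.22, adjusted p = 0.849). Both day-7 libraries lay above all untreated libraries for 10 of the 16 enzymes, while 29.2% of all genes did, and below them for PFKM alone, while 34% of all genes did.

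**Figure D2:**
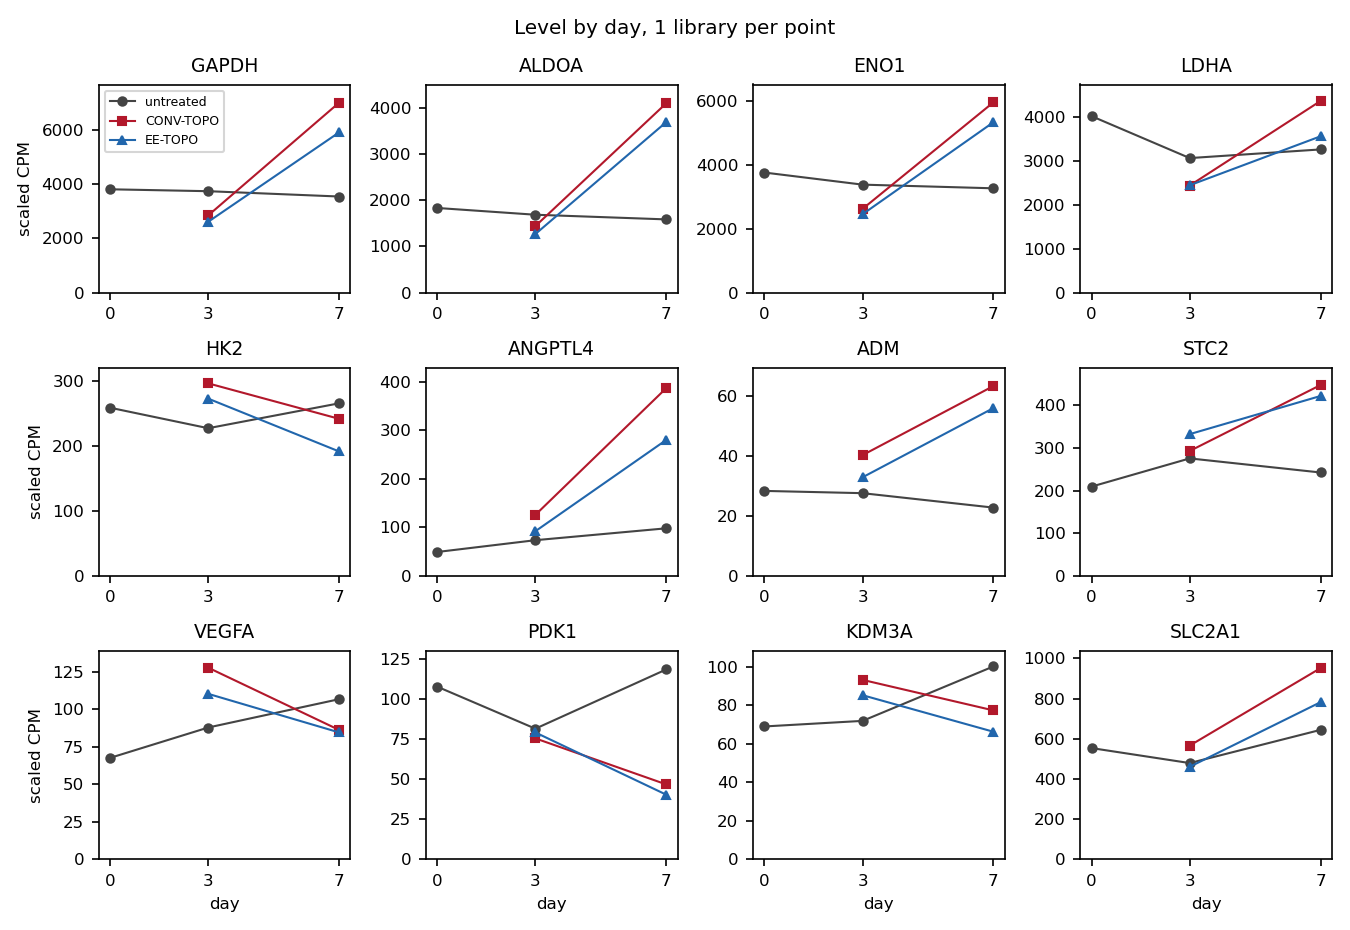
Scaled CPM (vertical axis, from 0) by day (horizontal axis) for 12 genes, with untreated in grey circles, CONV-TOPO in red squares and EE-TOPO in blue triangles, 1 library per point and so no error bars. GAPDH, ALDOA and ENO1 lie under the untreated line on day 3 and above it on day 7, ANGPTL4 climbs to 386 in CONV-TOPO, and PDK1 ends at 46.6 and 40.2.

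Among the other HIF targets the secreted products ANGPTL4 and ADM had the highest ratios. ANGPTL4 stood at 386 in CONV-TOPO and 279.8 in EE-TOPO on day 7, against 97.9 untreated, folds of 3.95 (3.75 to 4.16) and 2.86 (2.71 to 3.02). Both libraries exceeded every untreated library, and the log2 fold change was 1.74 ± 0.22 (adjusted p = 7.4e-04, limma). ADM stood at 63.2 and 55.9 against 22.7, with a log2 fold change of 1.35 ± 0.19 (adjusted p = 9.3e-04). STC2, the secreted glycoprotein stanniocalcin 2, stood at 209, 275 and 242 untreated and at 447 and 422 on day 7 (0.84 ± 0.14, adjusted p = 0.00212). These 3 were called under each of the 15 alternative settings of the day-7 fit, with adjusted p between 5.7e-05 and 0.0277. VEGFA was unlike them, at 86.3 and 84.6 against 107 untreated, within the untreated range of 67.6 to 107 (-0.32 ± 0.14, adjusted p = 0.111).

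PDK1 had the largest fall of the members. It stood at 108, 81.4 and 118 untreated, at 75.3 and 79.0 on day 3 and at 46.6 and 40.2 on day 7. The folds on day 7 were 0.394 (0.361 to 0.429) and 0.340 (0.309 to 0.373), and the log2 fold change was -1.43 ± 0.15 (adjusted p = 3.8e-04, limma). It was called under each of the 15 alternatives. SLC2A1, the main glucose transporter, stood at 553, 479 and 644 untreated and at 952 and 782 on day 7, above all untreated libraries but not called (0.42 ± 0.18, adjusted p = 0.0982). PFKFB3 on day 7, at 99.2 and 99.6, lay level with its untreated library of 98.8, and PFKFB4, its relative, stood at 235 and 171 against 175.

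The oxygen sensors differed from each other. EGLN3, the prolyl hydroxylase most induced by HIF, stood at 2.30, 3.25 and 3.90 untreated and 9.98 and 9.90 on day 7, and rose by 1.16 ± 0.29 (log2, adjusted p = 0.0125). EGLN1, the main prolyl hydroxylase, stood at 143 and 107 against 169 and was not called (-0.45, adjusted p = 0.0738). CA9, at 2.89 and 3.62 against 1.65 scaled CPM, had a fold of 1.75 (1.09 to 2.86) and 2.20 (1.38 to 3.52) and an adjusted p of 0.09997, while CA12, another membrane carbonic anhydrase, stood at 23.5 and 28.7 against 36.9 (-0.49, adjusted p = 0.0899). Of the genes of the endoplasmic reticulum, ERO1A, the disulfide oxidase, rose (709.8 and 707 against 505, log2 0.49 ± 0.14, adjusted p = 0.0220) and INSIG2, the retention factor of sterol sensing, did not pass (86.7 and 73.0 against 63.8, adjusted p = 0.153). KDM3A fell, from 100.2 to 77.4 and 66.3 (-0.48 ± 0.15, adjusted p = 0.0342), but untreated day 0 had 69.0, and against that library the log2 ratio was 0.052. MXI1, a MYC antagonist, stood at 38.7 and 39.2 against 38.6. The collagen prolyl hydroxylases P4HA1 (-0.10) and P4HA2 (0.37), the collagen cross-linker LOX (10.05 scaled CPM in both regimens against 12.6), the mitophagy receptors BNIP3 (-0.04) and BNIP3L (-0.09), and NDRG1 (5718 and 4374 against 3767) and ANKRD37, an ankyrin repeat protein (20.8 and 16.1 against 13.5), were not called. In bulk RNA, fewer cells of one kind and less RNA per cell cannot be told apart for any of these genes.

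Whether the effect of topotecan differed between the days was tested as the day-7 effect minus the day-3 effect. This contrast does not test a change of direction, and no member was called on day 3. The difference was higher than 0 for 15 of 16 enzymes, with a median of 0.79 on the log2 scale, and 9 enzymes were called higher (the 8 of day 7 and ALDOC) with none lower, where 28.6% of all genes were called, 14.7% higher and 13.9% lower. ALDOA had the largest difference, 1.61 ± 0.28 (adjusted p = 0.00416, limma), followed by GAPDH with 1.31 ± 0.34 (adjusted p = 0.0199) and ALDOC with 1.25 ± 0.28 (adjusted p = 0.0110). Among the other HIF targets ANGPTL4, ADM and STC2 were called higher and PDK1, VEGFA and KDM3A lower, and the median of the 24 was 0.07, or -0.21 over the 23 tested with library totals. VEGFA was called here though on neither day alone, with log2 ratios of 0.43 on day 3 and -0.32 on day 7 and a difference of -0.75 ± 0.20 (adjusted p = 0.0241). These calls depend on single libraries, since without EE-TOPO of day 3 no enzyme and without CONV-TOPO of day 3 only ALDOA, GPI and PFKL were called, and in both cases PDK1 was the one other HIF target called.

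**Figure D3:**
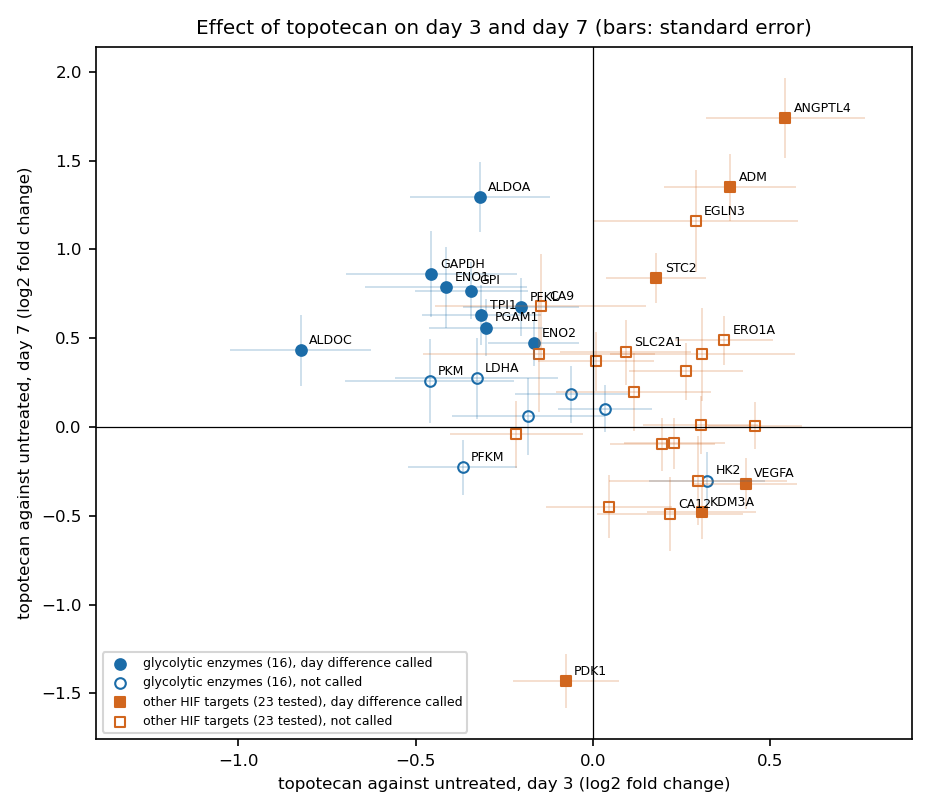
Log2 fold change of topotecan against untreated on day 3 (horizontal axis) and day 7 (vertical axis) for the 39 tested genes, with bars for the standard error; filled symbols were called in the difference between days (adjusted p under 0.05, limma). Enzymes (blue) gather at the upper left, with ALDOA at -0.32 and 1.29, and the other HIF targets (orange) lie mostly right of 0 and spread from 1.74 (ANGPTL4) to -1.43 (PDK1).

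Day-7 ratios over all genes went with transcript length, and the enzymes are short. Across 14257 genes, which are not independent replicates, Spearman's rho of the day-7 log2 ratio was -0.55 with the length of the canonical transcript, -0.47 with gene span and 0.47 with GC content, and a trend over these 3 held 38.4% of the variance. On day 3 the rho with transcript length was 0.36 and the trend held 15.2%. Split by transcript length into 10 equal sets of genes, the day-7 median was 0.60 in the shortest set and -0.68 in the longest. The enzymes had a median transcript of 2299.5 bases, the other HIF targets 3530.5 bases and all genes 3214. PDK1 has the longest transcript of the set, 14072 bases, and ADM, ALDOA and ANGPTL4 have 1492, 1640.0 and 1872 bases.

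With that trend taken out, the day-7 median of the enzymes was 0.12 in place of 0.45 and that of the other HIF targets 0.13 in place of 0.10. Of the enzymes 11 still lay above 0, but GPI alone was called (log2 0.80, adjusted p = 0.0106, limma), beside ALDOA at 0.56 (adjusted p = 0.0652) and GAPDH at 0.16 (adjusted p = 0.661). The other HIF targets kept ADM (0.76, adjusted p = 0.0180), ANGPTL4 (0.99), STC2 (0.88), EGLN3 (1.10) and ERO1A (0.96) as higher and PDK1 (-0.69, adjusted p = 0.0142) as lower, lost KDM3A (-0.18), and gained INSIG2 (0.59) and P4HA2 (0.61). Of all genes 7.34% were called higher and 9.34% lower in this fit, so that 1 of 16 enzymes lies near the background. The day-3 medians changed less, to -0.21 for the enzymes, with 15 of 16 below 0, and 0.22 for the other HIF targets. In the difference between days GPI and VEGFA were then called among the members, 2 of 39, while 7.03% of all genes were. What the trend with length stands for was not tested.

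**Figure D4:**
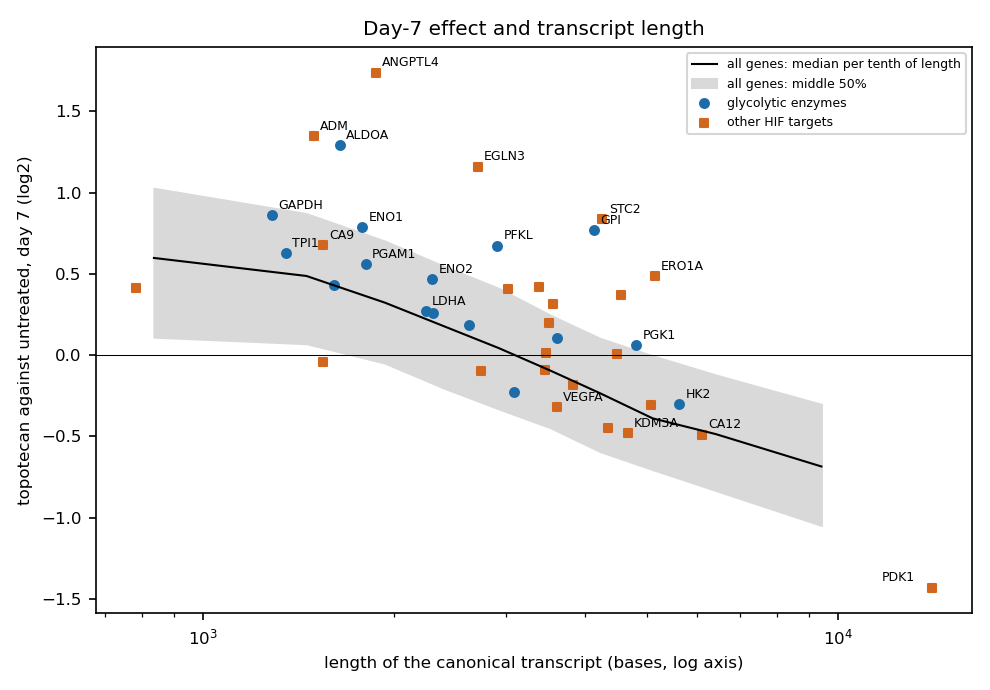
Log2 ratio of topotecan to untreated on day 7 (vertical axis) against canonical transcript length (horizontal log axis, bases) for the 40 genes, with the median (line) and middle 50% (grey band) of all genes in 10 sets of equal size by length. Enzymes such as GAPDH and TPI1 lie inside the band. Above it lie, among others, the enzymes ALDOA, GPI and PFKL and the other HIF targets ANGPTL4, ADM, EGLN3, STC2 and ERO1A. PDK1 is at the far right with 14072 bases.

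EE-TOPO lay slightly below CONV-TOPO across the set. On day 3, 14 of 16 enzymes and 16 of 24 other HIF targets were lower in EE-TOPO, with median log2 ratios of -0.13 and -0.11, and on day 7, 16 of 16 and 19 of 24, with medians of -0.18 and -0.19. Over all genes 50.3% were lower on day 3 and 51.1% on day 7. No member was called over both days, where 0% of all genes were called (adjusted p = 1.00 for all 39, limma), nor did any have an unadjusted p under 0.05, which 134 of all genes had. The median standard error of the difference was 0.33 on the log2 scale for the enzymes and 0.28 for the other HIF targets, larger than the median differences themselves. That error includes the change of the untreated contrast between days. A fit on the 4 topotecan libraries alone, with 1 residual degree of freedom, had a median standard error of 0.11 for both lists. It called 79 of all genes and none of the members (lowest adjusted p = 0.0594, limma), and 2 of 16 enzymes (HK2 and ALDOC) and 8 of 23 other HIF targets had an unadjusted p under 0.05, each of them lower in EE-TOPO, while 9.97% of all genes had one. On day 7 the trend with length held 1.04% of the variance of this difference, so removing it could change little. It left 16 of 16 enzymes lower, with a median of -0.19. On day 3 the trend held 11.9%, and its removal left 13 of 16 enzymes lower, with a median of -0.06. The other HIF targets then had a median of -0.18 on both days.

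The largest gaps were among the other HIF targets. ANGPTL4 had 91.9 in EE-TOPO against 126 in CONV-TOPO on day 3 and 279.8 against 386 on day 7, folds of 0.732 (0.689 to 0.778) and 0.724 (0.695 to 0.755). PFKFB4 had folds of 0.744 (0.707 to 0.782) and 0.726 (0.688 to 0.765). ANKRD37 had 6.68 against 12.0 on day 3, a fold of 0.559 (0.452 to 0.692). On the other strand UFSP2 overlaps it over 701 bases and LRP2BP over 448. The strand of counting is not stated, so some of its reads may belong to them. Among enzymes ALDOC was lowest on day 7, at 125 against 172 (0.724, 0.681 to 0.771). CA12 went the other way on both days, at 36.4 against 29.2 and 28.7 against 23.5, with folds of 1.25 (1.11 to 1.40) and 1.22 (1.06 to 1.42). LOX (1.25, 1.04 to 1.50) and STC2 (1.13, 1.09 to 1.18) were higher in EE-TOPO on day 3, but on day 7 LOX was at 1.00 (0.785 to 1.27) and STC2 at 0.943 (0.910 to 0.977). MXI1 and PFKFB3 were level on day 7, at 1.01 (0.897 to 1.14) and 1.00 (0.931 to 1.08).

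**Figure D5:**
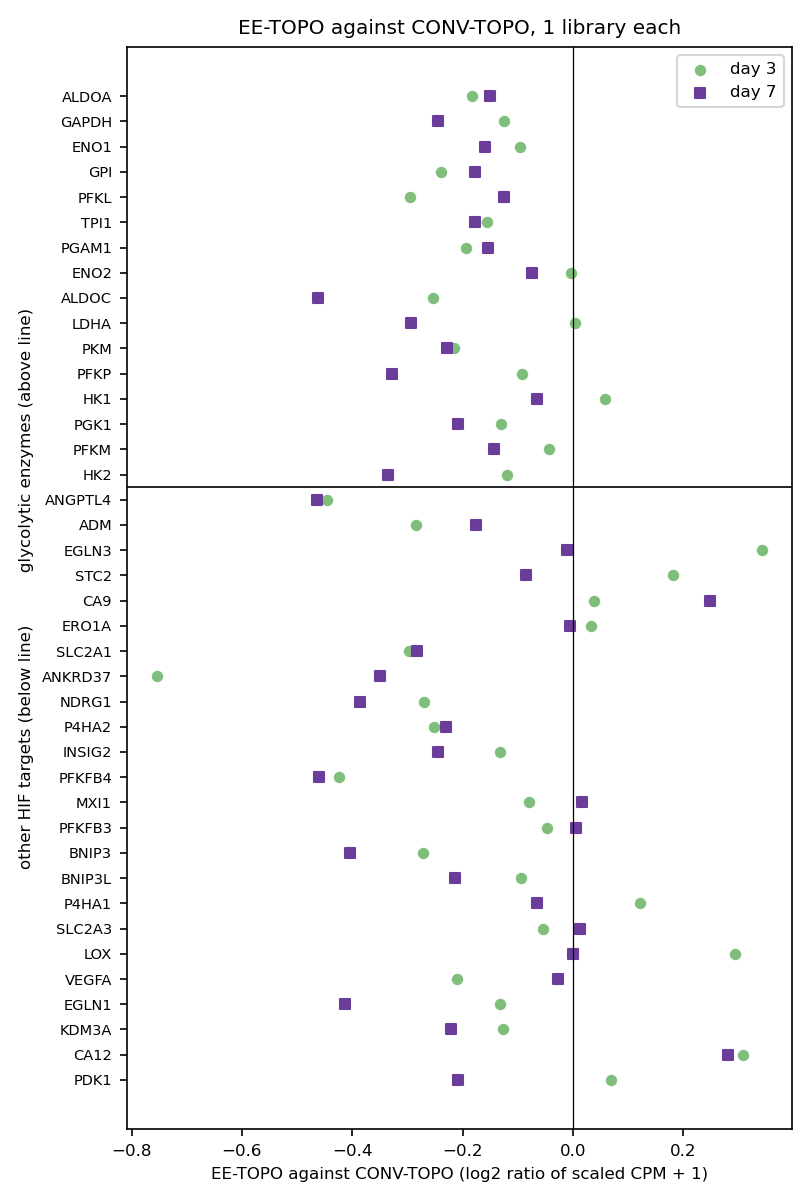
Log2 ratio of EE-TOPO to CONV-TOPO (horizontal axis, scaled CPM + 1) for each of the 40 genes (rows, enzymes above the line) on day 3 (green circles) and day 7 (purple squares), 1 library each and no error bars. All 16 enzymes lie left of 0 on day 7, from -0.06 (HK1) to -0.46 (ALDOC), and CA12 lies right of 0 on both days.

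Fitted over both days together, neither regimen gave a call against untreated among the members or among all genes (0% of 14836 for EE-TOPO and for CONV-TOPO, limma, against 527 and 257 genes at an unadjusted p under 0.05). The lowest adjusted p of a member was 0.908 in EE-TOPO and 0.913 in CONV-TOPO. The error of this fit is the variation of an effect between days, and the enzymes changed side between them. Without untreated day 3, when only day 7 sets a regimen against untreated, 6182 genes were called for EE-TOPO and 6466 for CONV-TOPO.

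The genes that carry the oxygen signal were themselves altered on day 7. HIF1A, the oxygen-regulated subunit of HIF-1, stood at 398, 379 and 347 scaled CPM untreated, at 379 and 442 on day 3 and at 136 and 125 on day 7. Both day-7 libraries lay far below all others, and HIF1A fell by 1.40 on the log2 scale (adjusted p = 3.8e-04, limma). The alpha subunit is controlled mainly at the protein level, which was not measured. EPAS1, the alpha subunit of HIF-2, was not called (-0.16, adjusted p = 0.415). Of the 14 tested genes of the HIF machinery, 6 rose (VHL, EGLN2, CITED2, ELOB, ELOC and RBX1) and 3 fell (HIF1A and the coactivators EP300 and CREBBP), where 18.6% of all genes rose and 20.2% fell. With the trend over length removed the log2 ratios of ELOB (1.09 to 0.18), EGLN2 (0.84 to 0.15), RBX1 (0.47 to 0.07) and CREBBP (-0.66 to -0.09) came close to 0, whereas HIF1A stood at -1.08, VHL at 0.61, CITED2 at 0.74, ELOC at 0.82 and EP300 at -0.84. VHL and its partners ELOB, ELOC and RBX1 belong to the complex that destroys the alpha subunit, as does CUL2, which lay lower. CUL2 stood at 129 and 139 on day 7 against 168 to 193 untreated and was not called (-0.37, adjusted p = 0.0532, limma). With the trend over length removed its log2 ratio was 0.05. VHL stood at 183 and 189 against 132 on untreated day 7 (0.49, adjusted p = 0.0198, limma). Untreated day 0 had 153 and untreated day 3 had 192, so the groups overlap for VHL. RBX1 overlapped too, at 51.1 and 51.5 against 36.7 on untreated day 7 and 52.7 on untreated day 0. The antisense transcript HIF1A-AS2 overlaps HIF1A, and the strand of counting is not stated.

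Further HIF-responsive genes were called in both directions too. Of 19 tested, 3 rose on day 7 (DDIT4, HILPDA and TMEM45A) and 7 fell (FUT11, GBE1, PLOD2, PPFIA4, VLDLR, WSB1 and ZNF395), beside 18.6% and 20.2% of all genes, so the share that rose is near the background. DDIT4, an inhibitor of mTORC1, stood at 47.0 and 67.3 on day 3 and 98.2 and 109 on day 7, against 15.8 to 25.3 untreated (2.15, adjusted p = 3.3e-04). FUT11, a fucosyltransferase, stood at 65.9 and 47.0 against 172 (-1.61, adjusted p = 5.6e-04, limma). With the trend over length removed, the log2 ratios of VLDLR (-0.89 to -0.33), PLOD2 (-0.73 to -0.33) and GBE1 (-0.64 to -0.30) shrank most among those that fell. ZNF395 went from -0.48 to -0.38, WSB1 from -1.28 to -0.98 and PPFIA4 from -2.28 to -2.08, while FUT11 went to -2.10. Of 11 tested further genes of glucose and lactate, SLC16A3, the lactate exporter MCT4, rose (1673 and 1408 against 789, log2 0.96, adjusted p = 0.00455), as did PDK2, and PFKFB2 and PDK3 fell. These 2 of 11 in each direction are near the shares of all genes. With the trend over length removed SLC16A3 went from 0.96 to 0.37, PDK2 from 0.81 to 0.53, PFKFB2 from -0.80 to -0.37 and PDK3 from -0.98 to -1.05. Of the pyruvate dehydrogenase kinases, then, PDK1 and PDK3 fell, PDK2 rose, and PDK4 stood at 4.13 and 6.35 against 5.09 (adjusted p = 0.982).

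Some members share sequence with other loci, which the counting could split. GENCODE lists 65 pseudogenes of GAPDH, 44 of BNIP3, 13 of PGAM1, 6 of LDHA, 5 of PKM and 4 each of TPI1 and ENO1, and PFKM overlaps SENP1 on the other strand over 828 bases. ALDOA has 2 pseudogenes, and by the deposited coordinates other listed entries on both strands cover its whole span of 6143 bases. The highest of them, LOC112694756 on the same strand, had a mean of 88.0 scaled CPM against 2230 for ALDOA. Values of these genes are uncertain to that extent.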

How the data were processed

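RNA-seq values of PC-3 spheroids were deposited by the authors as 1 table of CPM for 18144 genes. According to the methods, reads were mapped to hg38 with STAR, counted, normalized to CPM and handled in Partek Flow. Tool versions, annotation and strand setting are not given in the sources used here. The 3 day-1 libraries of the 10 samples were not analysed here. An offset of 0.0001 CPM in every value was subtracted. Steps of low values gave each library's depth (15.0 M to 22.5 M reads, with M for 1000000, and with 88.2% to 89.6% of low values within 0.02 reads of a whole number), so no count test was run. A value of 0 allows up to 3 reads, 0.133 to 0.200 CPM. Exact 95% intervals of folds between libraries cover counting error only.

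CPM were divided by TMM factors (own implementation). Genes with at least 10 reads at the median depth (0.528 CPM) in 2 libraries were tested with limma 3.58.1 (R 4.3.3, trend in the variance) on log2(scaled CPM + 1), so fold changes of low genes are understated. An adjusted p under 0.05 (Benjamini-Hochberg over 14836 genes) made a call. The day fits take both regimens of a day as samples of topotecan (7 libraries). The fits over both days use treatment and day (6 libraries). Scripts were tested on simulated data. Lengths and GC content came from GENCODE 44, and promoters from RefSeq. The members and all lists were chosen with earlier results of these data known. Genes given in full are CA9, VEGFA, SLC2A1, LDHA, PDK1, GAPDH and HK2, and the 3 highest and 3 lowest members in each comparison among those with at least 10 CPM. Other genes with values were chosen after their values were seen. Alternatives were library totals, median-of-ratios factors, a pseudocount of 0.1 CPM, other filters, no variance trend, other untreated baselines, leaving out each library and, added after the data were seen, a fit after a smooth trend over gene span, canonical transcript length and GC content had been taken out. Some marker genes of the line are not reported here.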

Additional observations from a re-analysis of the deposited data

Results flagged for a closer look

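For 15 members the effect of topotecan on day 7 differed from that on day 3 by the limma contrast of both effects (adjusted p under 0.05, Benjamini-Hochberg over all 14836 genes), 15 of the 39 tested, while 28.6% of all genes did. The difference, day 7 minus day 3 on the log2 scale, was positive for 9 glycolytic enzymes, with 1.61 for ALDOA, 1.31 for GAPDH, 1.25 for ALDOC, 1.20 for ENO1, 1.11 for GPI, 0.94 for TPI1, 0.88 for PFKL, 0.86 for PGAM1 and 0.64 for ENO2. It was also positive for the secreted HIF targets ANGPTL4 (1.19), ADM (0.96) and STC2 (0.66). It was negative for VEGFA (-0.75), KDM3A (-0.79) and PDK1 (-1.35). For the 9 enzymes the 2 effects had opposite signs, whereas for ANGPTL4, ADM and STC2 both were positive and for PDK1 both were negative. The contrast does not test the sign, and none of these genes was called on day 3.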

How the results depend on the processing

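Samples could not be paired by replicate because each treatment and day has 1 library and the labels carry no replicate numbers. The fits over both days compare the treatments within days.

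Fitted over both days (0 genes called each), a fit on the 4 libraries of the treatments compared called 34 genes for EE-TOPO against untreated, 9 for CONV-TOPO against untreated and 79 for EE-TOPO against CONV-TOPO. Leaving out 1 library at a time gave 0 to 6182, 0 to 6466 and 0 to 75 genes, the highest of the first 2 without untreated day 3. Without untreated day 7 they were 534 and 119. On day 3 (2 genes called) there were 4 with median-of-ratios factors or at least 10 CPM, 1 with a pseudocount of 0.1, 0 without the filter or without the variance trend, 683 against untreated day 0 and 248 against the mean of the untreated libraries, and 0 to 37 with a library left out, with 0 without CONV-TOPO or EE-TOPO of day 3. On day 7 (5761) taking out the trend over gene span, length and GC left 2378 genes. For the difference between days (4241) there were 1873 without the filter, 2783 without the variance trend, 1002 with the length trend removed, and 1155 to 4227 with a library left out (lowest without EE-TOPO of day 3, 2221 without CONV-TOPO of day 3).

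Of the 16 enzymes, 8 called higher on day 7 became 3 with library totals, 3 without the filter, 5 without the variance trend, 5 against untreated day 0 and 1 with the length trend removed, and 3 to 9 with a library left out (3 without CONV-TOPO of day 7). The 9 enzymes called in the difference between days became 5, 1 and 4 under the first 3 of these, 1 with the length trend removed, and 0 to 9 with a library left out (0 without EE-TOPO and 3 without CONV-TOPO of day 3). The 7 other HIF targets called on day 7 became 11 against the mean of the untreated libraries, where 6934 of all genes were called. Over all genes, the 2766 called higher on day 7 became 1804 with library totals, 1923 without the filter and 2226 without the variance trend. They became 1984 against untreated day 0 and 1047 with the length trend removed. In the difference between days the 2183 called higher became 1361 with library totals, 1031 without the filter and 1360 without the variance trend. With the length trend removed 477 were left. The median of the enzymes moved from -0.32 to -0.45 against untreated day 0 on day 3, and from 0.45 to 0.21 with library totals and 0.12 with the length trend removed on day 7. That of the other HIF targets moved from 0.22 to 0.28 with totals, 0.25 with a pseudocount of 0.1, 0.20 against untreated day 0, 0.10 against the mean and 0.23 in CONV-TOPO alone on day 3, and from 0.10 to -0.13 with totals, 0.46 against untreated day 0 and 0.36 against the mean on day 7. For single genes on day 7, 302 alternative values kept direction and call, 14 lost the call, 12 gained it, and KDM3A reversed to 0.052 against untreated day 0. In the difference between days 217 kept both, 42 lost the call and 4 gained it.

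Depth limits CA9, EGLN3, LOX and SLC2A3, whose intervals are wide. The cause of the changes above was not tested. With untreated day 7 left out, the day-7 fit has no untreated level and gives no value.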
